A study of Arabidopsis thaliana with 7 samples.

Results

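The transcripts described here were higher in flowers of both auxin response factor mutants than in wild-type Arabidopsis flowers. They were chosen by the measured ratios themselves, with every intensity below 65 set to 65. A probe set was taken where both arf6 arf8 arrays read at least 250, where arf6 arf8 over Columbia was at least 2 and where arf6/arf6 ARF8/arf8 over Columbia was at least 1.5, in the untreated and in the IAA arrays alike. Of 22746 probe sets that are not array controls, 90 met this rule (0.396%), after AT3G53980, EXLB1 and AKINBETA1, which also met it, were left out by name. The platform annotation lists 1 gene for 53 of the 90 and no gene for 37, and 4 are of a kind that can read several related transcripts.

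The series holds 7 single-colour arrays of RNA from whole flowers of stages 1 to 14 of plants grown for 6 weeks, with 1 array in each of 7 groups. The groups are arf6 arf8 with IAA and untreated, arf6/arf6 ARF8/arf8 with IAA and untreated, and Columbia, the wild type, with IAA, with a mock spray and untreated. IAA is indole-3-acetic acid, the main natural auxin, given as a spray at 10 µM by the sample labels and at 10 mM by the series text. The mock spray was its carrier alone, 1% methanol with 0.05% Tween-20, and flowers were taken 30 minutes after spraying. Untreated plants received no spray, and the one mock array is of Columbia, so IAA against untreated includes the spray itself. The series text gives the gene with 1 wild-type copy as ARF6 and the sample labels give it as ARF8, and the label is used below. ARF6 and ARF8 are on no probe set with a listed gene, so the genotypes were not checked on the mutated genes. No group has a repeat array, so a value is 1 array without an error, and p-values come from a model over all 7 arrays that assumes additive effects of genotype and treatment.

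Auxin response factors are transcription factors that bind promoters of auxin-regulated genes and are held in check by Aux/IAA proteins until auxin removes these. ARF6 and ARF8 act together in the last phase of flower growth, when petals and stamen filaments lengthen, jasmonate is made, nectaries work and anthers open. Flowers of the double mutant are known to stop as closed buds with short filaments and anthers that do not shed pollen.

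After trimming 2% at either end every array averaged 500 intensity units, and array medians were between 240.95 and 261.5. The Columbia mock array had a raised low end, with a 10th percentile of 26.9 against 9.4 to 17.89 on the other arrays. Markers of flower parts moved with genotype. The 2 tapetum genes measured of 21 listed, A9 (AT5G07230) and AMS, summed to 1316.5 to 2332.5 on the 4 mutant arrays and 676.0 to 913.5 on the 3 Columbia arrays. The 4 pollen genes of 12 listed summed to 1641.8 to 2157.6 on the mutant arrays and 2716.5 to 3401.1 in Columbia. The 3 nectary and opened-flower genes of 9 listed summed to 416.2 to 537.1 in arf6 arf8, 1311.1 to 1672.2 in arf6/arf6 ARF8/arf8 and 4127.4 to 4519.2 in Columbia. The single carpel gene of 6, SPT, read 569.7 to 801.3 on the mutant arrays and 395.1 to 486.4 in Columbia. RCA, for green tissue (1 of 11 listed), and AUR1, for dividing cells (1 of 7), had mutant and Columbia arrays that overlapped. No marker was at 0, and TPS24 (AT3G25810), at 12.3 and 13.0 in arf6 arf8, was the lowest. The part of these shifts in the results below was not tested, and in whole flowers more cells of a type and more RNA per cell cannot be told apart.

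Across the 90 transcripts the ratio of arf6 arf8 over Columbia, as the geometric mean of the IAA and the untreated pair, had a median of 2.69-fold and a range of 2.07-fold to 6.15-fold. For arf6/arf6 ARF8/arf8 over Columbia the median was 2.0-fold and the range 1.52-fold to 3.75-fold. In 29 transcripts the first ratio was at least 3, and in 6 it was at least 4. The median intensities over the 90 were 1020 and 863 in arf6 arf8 with IAA and untreated, 749 and 699 in arf6/arf6 ARF8/arf8, and 361, 393 and 323 in Columbia with IAA, mock and untreated. These ratios were selected on, so they are a description. In the model over all probe sets all 90 were called higher in arf6 arf8, beside 9.14% of 13021 probe sets, and 66 were called higher in arf6/arf6 ARF8/arf8, beside 1.14% (limma, adjusted p under 0.05), and nothing is read from these counts.

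**Figure D1:**
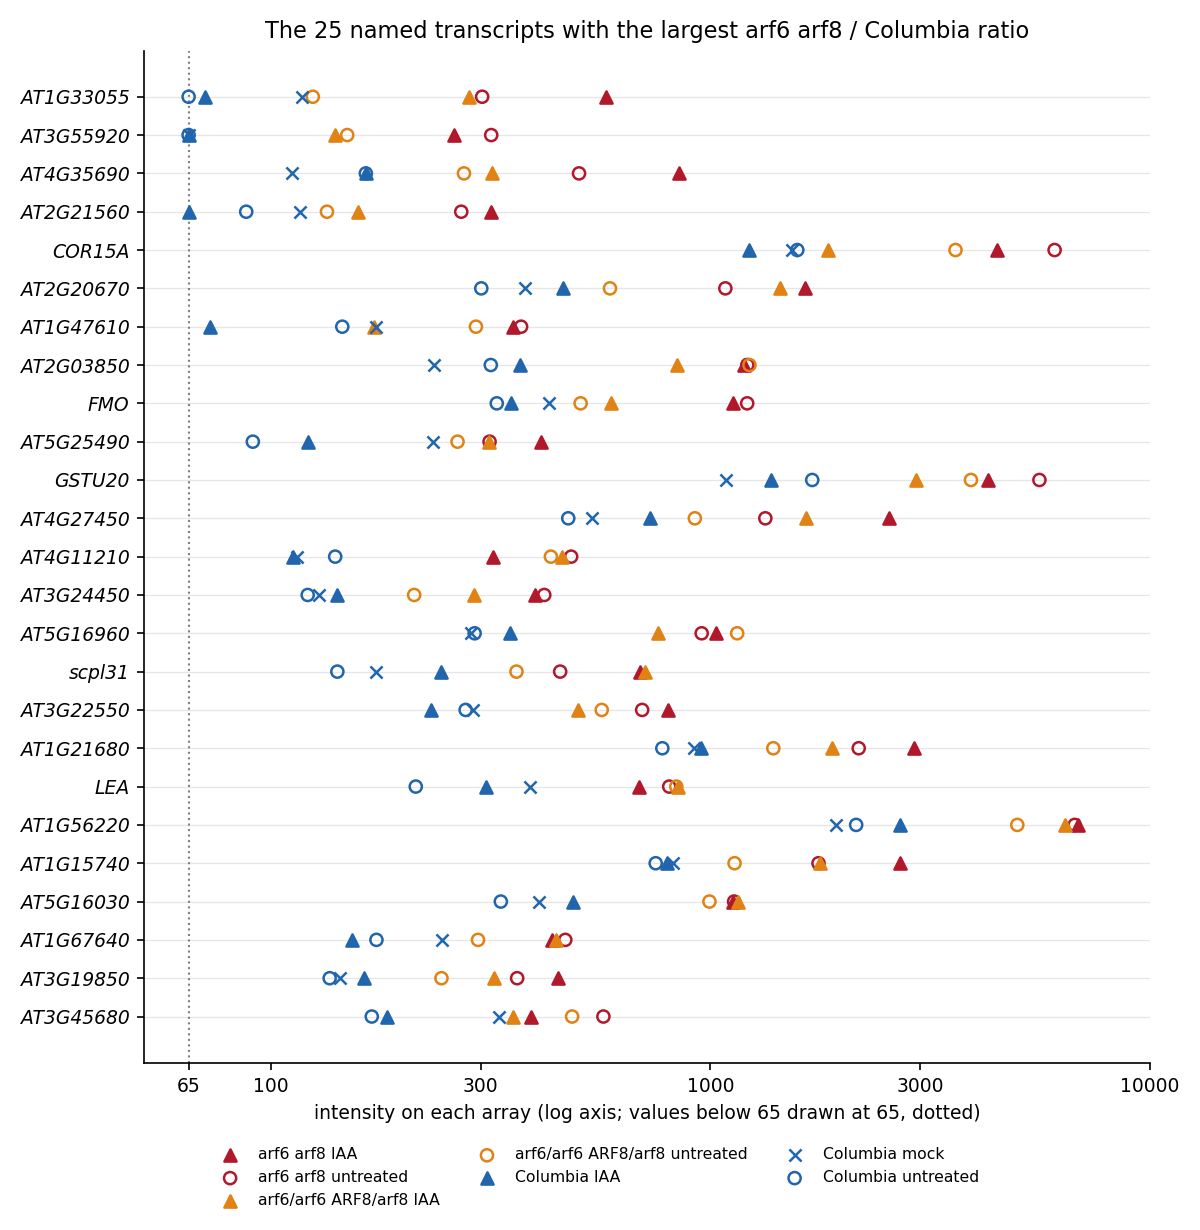
Intensity on each of the 7 arrays (log axis, 1 symbol per array) for the 25 transcripts with 1 listed gene and the largest ratio of arf6 arf8 over Columbia; values below 65 are drawn at 65. For each of them both arf6 arf8 arrays lie to the right of all 3 Columbia arrays, and the Columbia mock symbol of AT1G47610 lies just right of the arf6/arf6 ARF8/arf8 symbol with IAA, at 173.9 against 171.5.

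Transcripts grouped under cold, dehydration, low oxygen or dormancy came from 6 genes, with arf6 arf8 ratios of 2.83-fold to 6.15-fold. Of the 6, AT4G27450 is described with the IAA response. AT1G33055, a small protein gene known to be induced by low oxygen, read 577.5 with IAA and 302.6 untreated in arf6 arf8, 282.1 and 124.6 in arf6/arf6 ARF8/arf8, and 71.0, 117.8 and 63.4 in Columbia with IAA, mock and untreated. Its untreated ratio in arf6 arf8 is at least 4.66-fold, since that Columbia array lay below 65, and with IAA it was 8.13-fold. COR15A, which encodes a chloroplast protein that protects membranes during freezing, read 4482.1 with IAA and 6074.8 untreated in arf6 arf8, 1856.7 and 3614.1 in arf6/arf6 ARF8/arf8, and 1227.9, 1538.0 and 1577.7 in Columbia with IAA, mock and untreated. Each genotype read lower with IAA than untreated, a difference that did not pass the IAA test below, and the genotypes did not overlap, although the arf6/arf6 ARF8/arf8 array with IAA stood close to the Columbia arrays.

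In the next 3 genes of that group the mutants differed by less than 1.5-fold in both pairs. LEA (AT2G21490), a dehydrin gene, read 688.0 with IAA and 806.4 untreated in arf6 arf8, 842.8 and 836.8 in arf6/arf6 ARF8/arf8, and 308.3, 388.4 and 213.7 in Columbia with IAA, mock and untreated. It is among 3 of the 90 with arf6/arf6 ARF8/arf8 above arf6 arf8 in both pairs. AT2G03850, of the late embryogenesis abundant protein family, read 1194.2 with IAA and 1214.0 untreated in arf6 arf8, 841.2 and 1227.8 in arf6/arf6 ARF8/arf8, and 369.6, 234.8 and 316.6 in Columbia with IAA, mock and untreated. AT1G56220, of the dormancy and auxin associated family, read 6869.6 with IAA and 6747.5 untreated in arf6 arf8, 6415.3 and 4995.2 in arf6/arf6 ARF8/arf8, and 2698.2, 1935.3 and 2147.5 in Columbia with IAA, mock and untreated. In all 3 the mutant arrays lay above every Columbia array.

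Of the other genes of these pathways, few are on named probe sets. The dehydration and abscisic acid list of 29 genes had 5 that could be tested, and COR15A among them was chosen by the rule on this same ratio. The other 4 had a median log2 difference between arf6 arf8 and Columbia of 0.76, beside 0.02 over all probe sets, and 2 of these 4 were called higher in arf6 arf8, beside 9.14% of probe sets. HIS1-3, a linker histone gene induced by drought, was called higher (log2 1.91 ± 0.18 SE, limma adjusted p = 0.00142), as was LTI30, a dehydrin gene (1.12 ± 0.27, adjusted p = 0.0315). LTI30 read 281.0 with IAA and 321.3 untreated in arf6 arf8, 247.4 and 291.9 in arf6/arf6 ARF8/arf8, and 184.6, 280.7 and 103.0 in Columbia with IAA, mock and untreated, so its Columbia mock array was level with arf6 arf8 with IAA and above arf6/arf6 ARF8/arf8 with IAA. For COR15B, the close relative of COR15A, the value was 0.40 ± 0.15 (limma, adjusted p = 0.112) and for the dehydrin gene COR47 it was -0.19 ± 0.15 (adjusted p = 0.39). COR15B read 1630.3 with IAA and 1488.5 untreated in arf6 arf8, 1439.1 and 1113.6 in arf6/arf6 ARF8/arf8, and 1422.1, 1612.7 and 976.0 in Columbia with IAA, mock and untreated, so its Columbia mock array lay within the range of the arf6 arf8 arrays. In arf6/arf6 ARF8/arf8 0 of these 4 were called, beside 1.14% of probe sets called higher (limma, lowest adjusted p = 0.107, for LTI30). Of the hypoxia list of 16 genes, AT4G10270 was the testable gene besides AT1G33055, at 1.01 ± 0.23 in arf6 arf8 and 0.08 ± 0.23 in arf6/arf6 ARF8/arf8 (limma, adjusted p = 0.0299 and 0.879).

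The 9 detoxification and oxidation genes had arf6 arf8 ratios of 2.35-fold to 3.45-fold. GSTU20, a tau class glutathione transferase gene, read 4279.3 with IAA and 5609.9 untreated in arf6 arf8, 2938.6 and 3918.9 in arf6/arf6 ARF8/arf8, and 1377.0, 1085.0 and 1706.0 in Columbia with IAA, mock and untreated. FMO (AT1G12200), a flavin monooxygenase gene, read 1128.4 with IAA and 1213.3 untreated in arf6 arf8, 595.2 and 506.9 in arf6/arf6 ARF8/arf8, and 352.5, 428.7 and 326.7 in Columbia with IAA, mock and untreated. AT5G16960, of the zinc-binding dehydrogenase family, read 1030.3 with IAA and 955.9 untreated in arf6 arf8, 760.8 and 1151.3 in arf6/arf6 ARF8/arf8, and 350.1, 284.7 and 290.9 in Columbia with IAA, mock and untreated. FMO was more than 1.5-fold higher in arf6 arf8 than in arf6/arf6 ARF8/arf8 in both pairs, whereas the untreated arf6/arf6 ARF8/arf8 array was the highest of the 7 for AT5G16960.

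PRXR1, a peroxidase gene, read 13504.4 with IAA and 11027.5 untreated in arf6 arf8, 8279.5 and 7282.5 in arf6/arf6 ARF8/arf8, and 5005.1, 4601.4 and 4261.1 in Columbia with IAA, mock and untreated. AT5G44440, of the berberine bridge enzyme family, had the largest arf6/arf6 ARF8/arf8 ratio of the 90, 3.75-fold, above its arf6 arf8 ratio of 2.45-fold. It read 283.7 with IAA and 351.4 untreated in arf6 arf8, 411.7 and 567.0 in arf6/arf6 ARF8/arf8, and 139.3, 241.7 and 119.1 in Columbia with IAA, mock and untreated. The remaining members of the group were CCS, the copper chaperone of superoxide dismutase, the glycosyltransferase gene UGT85A5, the choline monooxygenase-like AT4G29890 and the dehydrogenase-like AT4G24050. Their arf6 arf8 ratios were between 2.35-fold and 2.64-fold.

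Membrane transport had 5 genes, with arf6 arf8 ratios of 2.19-fold to 2.77-fold. SWEET10, a sugar transporter gene known to be activated at the transition to flowering, read 6311.8 with IAA and 4688.9 untreated in arf6 arf8, 4321.2 and 4154.5 in arf6/arf6 ARF8/arf8, and 2457.9, 1834.9 and 1890.8 in Columbia with IAA, mock and untreated. Its relative SWEET9, the nectary sucrose exporter, went the other way and read 83.5 and 82.6 in arf6 arf8, 409.6 and 518.9 in arf6/arf6 ARF8/arf8, and 1460.6, 1627.1 and 1781.9 in Columbia with IAA, mock and untreated. AT1G67640, of the amino acid transporter family, read 437.2 with IAA and 467.8 untreated in arf6 arf8, 444.4 and 296.1 in arf6/arf6 ARF8/arf8, and 152.8, 244.9 and 173.9 in Columbia with IAA, mock and untreated. AT3G45680, of the nitrate and peptide transporter family, had a high Columbia mock value of 330.7, beside 183.8 with IAA and 169.7 untreated in Columbia and 355.0 to 571.2 on the mutant arrays. The GABA transporter gene AT1G08230 and AT5G14940, of the major facilitator superfamily, had arf6 arf8 ratios of 2.19-fold and 2.55-fold.

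Secreted and wall-associated proteins were encoded by 10 of the genes, and in 4 of these arf6 arf8 was above arf6/arf6 ARF8/arf8 in both pairs. That order held for 69 of the 90 and for 33.7% of the probe sets bright in arf6 arf8, and nothing is read from the 4. AT4G11210, of the dirigent family, read 320.1 with IAA and 482.4 untreated in arf6 arf8, 459.5 and 433.8 in arf6/arf6 ARF8/arf8, and 112.6, 114.7 and 140.1 in Columbia with IAA, mock and untreated. Genes of anther tissue stood in this group. ATA27, a beta-glucosidase gene named for the anther, read 4600.3 with IAA and 3952.6 untreated in arf6 arf8, 3492.4 and 4417.7 in arf6/arf6 ARF8/arf8, and 2279.6, 2030.1 and 1637.5 in Columbia with IAA, mock and untreated. AT5G62080, of the lipid transfer protein family, read 2286.0 with IAA and 2289.4 untreated in arf6 arf8, 1922.1 and 2414.4 in arf6/arf6 ARF8/arf8, and 985.1, 667.6 and 752.5 in Columbia with IAA, mock and untreated. In both, and in AT4G14815 of the same family, the untreated arf6/arf6 ARF8/arf8 array lay above the untreated arf6 arf8 array while the order was the reverse with IAA. This order was found for 13 of the 90, and its share over all probe sets was not counted. The order was also found in AT2G03850, AT5G16960 and AT3G51000, all placed outside this group, and whether they are anther genes was not examined. Of the 2 tapetum markers measured, AMS had it, at 387.8 and 321.1 in arf6 arf8 and 292.2 and 374.6 in arf6/arf6 ARF8/arf8 with IAA and untreated, and A9 did not, at 1399.0 and 2011.4 in arf6 arf8 and 1024.3 and 1401.3 in arf6/arf6 ARF8/arf8. Whether the tapetum shift accounts for these values was not tested.

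A further lipid transfer protein family gene, AT1G48750, read 8707.7 with IAA and 7321.1 untreated in arf6 arf8, 4969.7 and 4956.7 in arf6/arf6 ARF8/arf8, and 3190.7, 3579.5 and 2924.3 in Columbia with IAA, mock and untreated, so here the 3 genotypes were graded. The family as listed, 24 genes with 5 testable, held none of the 90, so AT1G48750, AT5G62080 and AT4G14815 are not on that list. Of the 5, 2 were called higher and 2 lower in arf6 arf8, beside 9.14% and 7.96% of all probe sets (limma). In arf6/arf6 ARF8/arf8 1 was called higher (limma). AT3G53980 was called higher in both mutants, but it met the rule on these same ratios before it was left out by name, so nothing is read from its calls. The other gene called higher in arf6 arf8 was AT1G62510, at log2 2.21 ± 0.18 there and 0.29 in arf6/arf6 ARF8/arf8 (limma, adjusted p = 0.00076 and 0.421). Called lower in arf6 arf8 were AT1G05450 and AT2G10940, at log2 -3.08 and -0.51 (limma, adjusted p = 0.000135 and 0.0424). AT1G30350, of the pectin lyase-like family, was the transcript with the smallest arf6 arf8 ratio of the 90. It read 626.6 with IAA and 421.0 untreated in arf6 arf8, 556.8 and 468.4 in arf6/arf6 ARF8/arf8, and 304.4, 234.5 and 203.2 in Columbia with IAA, mock and untreated. In the RefSeq gene order AT1G30350 is the protein-coding gene next to ARF6 on chromosome 1. The other members of the group were the protease inhibitor gene AT2G38870, the gibberellin-regulated family gene AT5G59845, the glycine-rich protein gene AT4G30450 and scpl31, a serine carboxypeptidase-like gene described with the IAA response.

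Genes with regulatory domains numbered 7, and in each of them arf6 arf8 was above arf6/arf6 ARF8/arf8 in both pairs. That order held for 69 of the 90 (76.7%) and for 33.7% of the probe sets bright in arf6 arf8. The groups were set after the values were seen, so nothing is read from their counts. SKP2A, which encodes an F-box protein that binds auxin and acts on cell cycle regulators, read 1148.2 with IAA and 802.9 untreated in arf6 arf8, 712.1 and 647.6 in arf6/arf6 ARF8/arf8, and 408.2, 371.7 and 397.4 in Columbia with IAA, mock and untreated. AT1G47610, a WD40 repeat gene, read 354.9 with IAA and 371.1 untreated in arf6 arf8, 171.5 and 292.9 in arf6/arf6 ARF8/arf8, and 72.7, 173.9 and 145.4 in Columbia with IAA, mock and untreated. AT3G19850, of the phototropic signalling NPH3 family, read 449.3 with IAA and 363.5 untreated in arf6 arf8, 322.4 and 244.5 in arf6/arf6 ARF8/arf8, and 163.2, 143.9 and 136.1 in Columbia with IAA, mock and untreated. SKP2A and AT3G19850 kept the Columbia arrays within a narrow span, while AT1G47610 had 1 Columbia array, the mock, above a mutant array. AT3G22550, a zinc finger family gene, had levels of 498.8 to 801.9 on the mutant arrays and 231.7 to 287.9 on the Columbia arrays. The bHLH gene AT4G00870 and the calmodulin-binding IQ-domain gene iqd21 had arf6 arf8 ratios of 2.46-fold and 2.12-fold.

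Of the 16 named genes outside these groups, several had large ratios. AT3G55920, a cyclophilin gene, read 260.9 with IAA and 317.3 untreated in arf6 arf8 and 140.3 and 149.2 in arf6/arf6 ARF8/arf8, against 1.8, 16.8 and 1.0 in Columbia with IAA, mock and untreated. All Columbia arrays lay below 65, so its arf6 arf8 ratios are at least 4.01-fold with IAA and at least 4.88-fold untreated. AT4G35690 read 850.4 with IAA and 502.7 untreated in arf6 arf8, 318.0 and 275.1 in arf6/arf6 ARF8/arf8, and 164.9, 111.8 and 164.5 in Columbia with IAA, mock and untreated. AT2G21560 read 316.7 with IAA and 271.2 untreated in arf6 arf8, 158.0 and 134.2 in arf6/arf6 ARF8/arf8, and 55.2, 116.8 and 87.9 in Columbia with IAA, mock and untreated. In these 3 the arf6/arf6 ARF8/arf8 arrays lay between the other genotypes. AT3G24450, a heavy metal domain gene, had 211.9 to 419.0 on the mutant arrays and 121.3 to 141.7 in Columbia, and AT5G16030 had 995.6 to 1157.0 and 333.7 to 486.2. AT1G21680 had 1391.2 to 2900.5 on the mutant arrays and 777.8 to 952.7 in Columbia, and the leucine-rich repeat gene AT1G15740 had 1135.6 to 2695.6 and 751.2 to 824.1.

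The 37 transcripts with no listed gene were like the named ones in ratio, with a median of 2.79-fold for arf6 arf8 over Columbia and of 2.04-fold for arf6/arf6 ARF8/arf8, against 2.66-fold and 1.96-fold for the 53 named. The probe set 262196_at read 321.9 with IAA and 427.0 untreated in arf6 arf8, 222.1 and 220.4 in arf6/arf6 ARF8/arf8, and 59.1, 101.0 and 63.6 in Columbia with IAA, mock and untreated. For 263318_at the arrays read 601.6 and 635.5 in arf6 arf8, 397.2 and 250.3 in arf6/arf6 ARF8/arf8, and 120.1, 36.8 and 122.0 in Columbia.

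The arf6 arf8 arrays were above those of arf6/arf6 ARF8/arf8 in both pairs for 69 of the 90, beside 33.7% of the 10715 probe sets that read at least 250 on both arf6 arf8 arrays. The opposite order in both pairs held for 3, LEA, AT5G44440 and 262765_at, beside 27.4%. The rule asks a larger ratio of arf6 arf8 than of arf6/arf6 ARF8/arf8, so this order is partly set by it and no test is given. On the log2 scale the arf6/arf6 ARF8/arf8 rise was a median of 69.3% of the arf6 arf8 rise, with a range of 33.4% to 147%. A difference of at least 1.5-fold between the mutants in both pairs was found for 16, among them AT1G33055, AT3G55920, AT4G35690, AT2G21560, COR15A, FMO and PRXR1. In 13 transcripts arf6/arf6 ARF8/arf8 was above arf6 arf8 when untreated only, and in 5, AT4G11210, scpl31, AT5G16030, AT1G67640 and AT2G38820, with IAA only. For the counts of 16, 13 and 5 the share over all probe sets was not taken, so nothing is read from them.

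**Figure D2:**
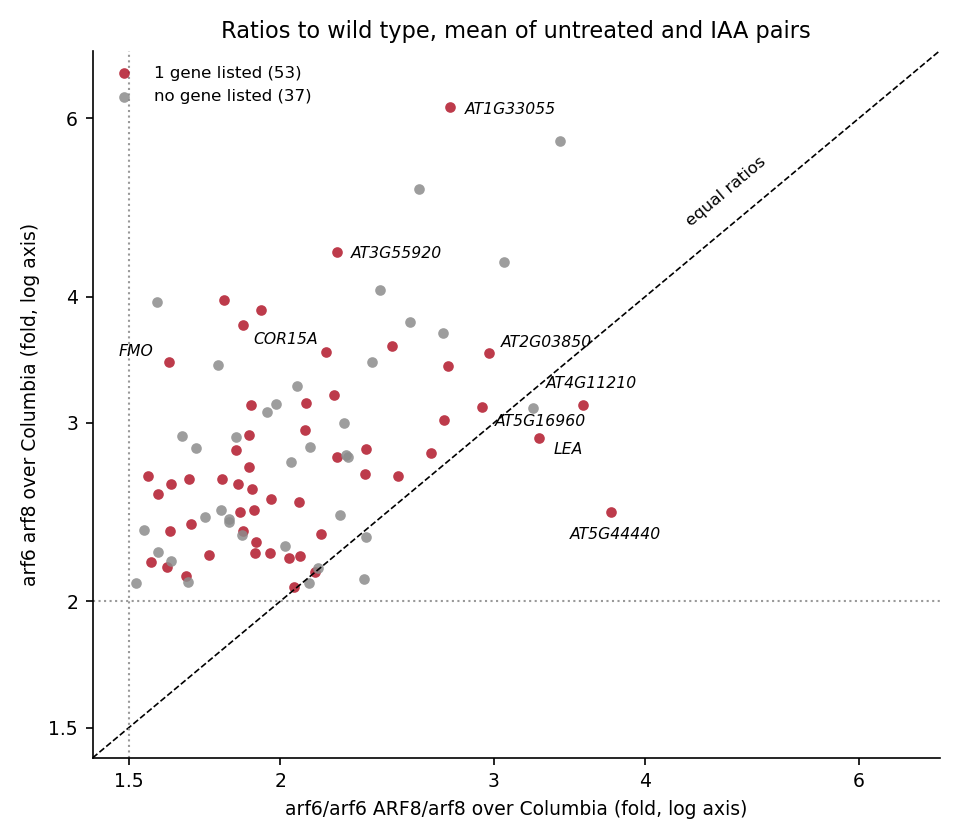
Ratio of arf6 arf8 over Columbia (vertical, fold, log axis) against that of arf6/arf6 ARF8/arf8 over Columbia (horizontal, fold, log axis) for the 90 transcripts, each the geometric mean of the IAA and untreated pairs, with values below 65 counted as 65, so that ratios resting on them are lower bounds; dotted lines are the rule's ratios of 2 and 1.5, which apply to each pair. Most points lie above the dashed line of equal ratios, with AT1G33055 at 6.15 and 2.76, and AT5G44440 lies furthest below it at 2.45 and 3.75.

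The Columbia mock array was not used in choosing the transcripts, so it gives a further wild-type reading, under the mock spray. Both arf6 arf8 arrays were at least 2-fold above it for 61 of the 90, beside 2.12% of the 10715 probe sets bright in arf6 arf8. All 4 mutant arrays were above it for 87, beside 34.3%, and the exceptions were AT1G47610, UGT85A5 and AT2G38870. The mutant arrays in this comparison are the ones the rule used, so it is no independent test. The median ratio to the mock array was 2.79 and 2.29 for arf6 arf8 with IAA and untreated, and 2.09 and 1.74 for arf6/arf6 ARF8/arf8. With mock in the place of untreated Columbia the rule found 72 transcripts, of which 50 are among the 90.

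**Figure D3:**
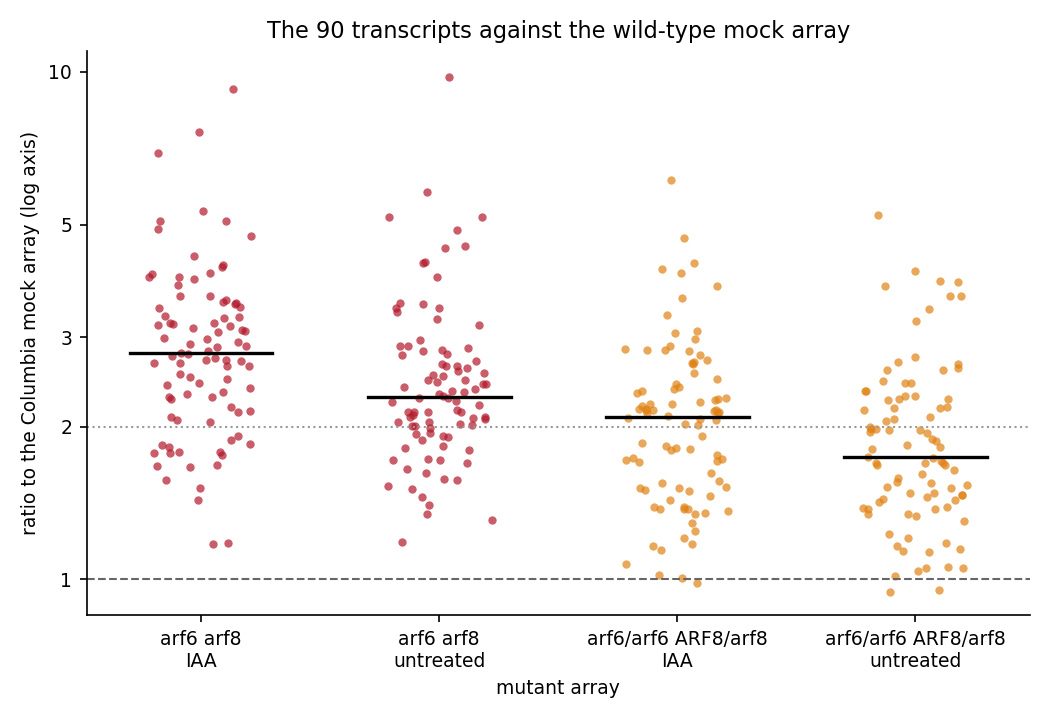
Ratio of each mutant array to the Columbia mock array (log axis) for the 90 transcripts, 1 point a transcript and a bar at the median; the dashed line is a ratio of 1 and the dotted line a ratio of 2. All points of the arf6 arf8 arrays lie above 1, and the medians are 2.79 and 2.29 for arf6 arf8 with IAA and untreated and 2.09 and 1.74 for arf6/arf6 ARF8/arf8.

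The IAA spray against untreated was tested over the 3 genotypes, a contrast the rule did not choose on. Of the 90, 7 rose with IAA, beside 0.737% of 13021 probe sets, and 0 fell, beside 0.346% (limma, adjusted p under 0.05). At an unadjusted p under 0.05 the numbers were 28 and 4 of the 90, beside 1022 and 1053 of the 13021 (limma). The median fitted log2 difference was 0.18 over the 90 and -0.01 over all probe sets. A small p here needs the 3 genotypes to give like IAA differences, and the rule asks for large ratios in both treatments, so the share of 7 in 90 is not fully independent of the rule.

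The genes with a name that rose were AT1G22890, AT2G15960, AT4G27450 and scpl31. AT4G27450, whose protein is of an aluminium-induced family, read 2557.2 with IAA and 1334.2 untreated in arf6 arf8, 1649.2 and 922.4 in arf6/arf6 ARF8/arf8, and 727.4, 539.1 and 475.1 in Columbia with IAA, mock and untreated. It rose 1.74-fold with IAA (log2 0.80 ± 0.12 SE, limma adjusted p = 0.0348). For scpl31 the arrays read 691.1 with IAA and 455.4 untreated in arf6 arf8, 708.8 and 362.2 in arf6/arf6 ARF8/arf8, and 243.6, 173.2 and 141.7 in Columbia with IAA, mock and untreated, a fitted rise of 1.72-fold (log2 0.78 ± 0.12, limma adjusted p = 0.0367). In both, each genotype was higher with IAA, and every Columbia array stayed below every mutant array.

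AT1G22890 read 669.2 with IAA and 304.5 untreated in arf6 arf8, 459.0 and 239.3 in arf6/arf6 ARF8/arf8, and 241.9, 161.9 and 126.5 in Columbia with IAA, mock and untreated. It rose 2.01-fold (log2 1.00 ± 0.11, limma adjusted p = 0.0153), so that Columbia with IAA slightly exceeded untreated arf6/arf6 ARF8/arf8. AT2G15960 read 2817.0 with IAA and 1655.2 untreated in arf6 arf8, 2334.8 and 1110.6 in arf6/arf6 ARF8/arf8, and 1349.0, 1055.8 and 739.1 in Columbia with IAA, mock and untreated, a rise of 1.87-fold (log2 0.90 ± 0.12, limma adjusted p = 0.0214). Here Columbia with IAA was likewise above untreated arf6/arf6 ARF8/arf8. The 3 transcripts without a listed gene, 245668_at, 265560_at and 267461_at, rose 2.19-fold, 1.99-fold and 1.83-fold (limma, adjusted p = 0.0111, 0.0203 and 0.0214). The probe set 267461_at read 16070.8 with IAA and 9393.1 untreated in arf6 arf8, 12350.4 and 6755.0 in arf6/arf6 ARF8/arf8, and 6288.3, 4597.2 and 3191.2 in Columbia with IAA, mock and untreated.

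**Figure D4:**
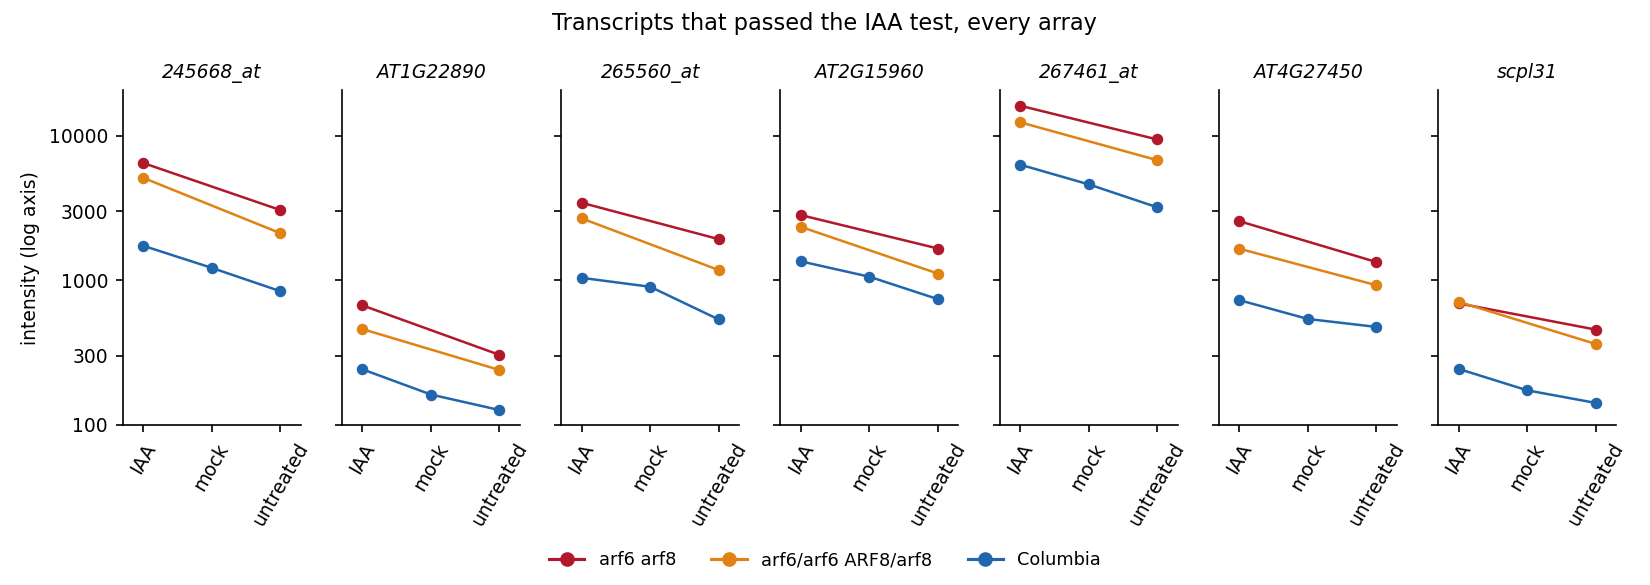
Intensity (log axis) by treatment of the 7 transcripts that passed the IAA test, 1 point an array and a line for each genotype. All genotypes are higher with IAA, and in Columbia the mock point lies between the IAA and the untreated point in 7 of 7.

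By genotype the rise of these 7 was between 1.52-fold and 2.20-fold in arf6 arf8, between 1.79-fold and 2.41-fold in arf6/arf6 ARF8/arf8 and between 1.53-fold and 2.06-fold in Columbia. In Columbia the mock array lay between the IAA and the untreated array for 7 of 7, at 1.13-fold to 1.68-fold over untreated. Mock and IAA share the untreated array here. With IAA set against mock, the log2 differences of the 7 were 0.22 to 0.61 and 0 passed (limma, adjusted p from 0.289 to 0.80), so an effect of auxin apart from the spray was not shown for them. In that contrast 20 of the 90 had an unadjusted p under 0.05 (limma), a count whose share over all probe sets was not taken. Without either arf6 arf8 array, with no filter on dim probe sets or with untreated and mock as one control 0 of the 90 passed, and without either arf6/arf6 ARF8/arf8 array 3 did.

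By ratio alone, 8 of the 90 were at least 1.5-fold higher with IAA in all 3 genotypes, beside 0.707% of probe sets, and 0 were lower by that factor, beside 0.353%. The 8 are the 7 above and AT2G20670, of a family of unknown function. It read 1645.5 with IAA and 1082.1 untreated in arf6 arf8, 1438.2 and 591.2 in arf6/arf6 ARF8/arf8, and 462.0, 379.5 and 301.2 in Columbia with IAA, mock and untreated, at a fitted log2 difference of 0.83 ± 0.16 (limma, adjusted p = 0.073). At the other end COR15A had -0.59 ± 0.15 and AT1G47610 had -0.61 ± 0.18 (limma, adjusted p = 0.134 and 0.185). For comparison, of the 5 testable genes of the auxin list, none of them among the 90, 3 rose with IAA: EXO, HAT2 and GH3.3, at log2 differences of 1.70, 1.31 and 1.21 (limma, adjusted p = 0.00984, 0.0111 and 0.0214). EXO was also called higher with mock (limma, adjusted p = 0.0437).

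**Figure D5:**
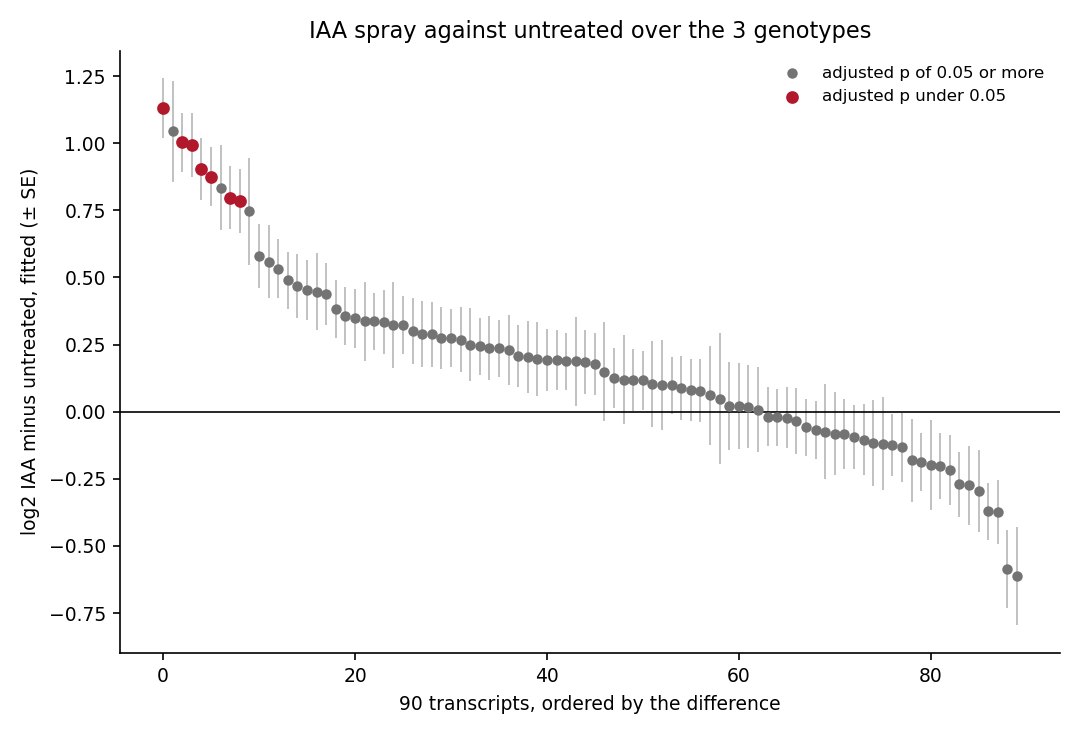
Fitted log2 difference of IAA minus untreated over the 3 genotypes (vertical, points ± SE) for the 90 transcripts, ordered by size, with red points for an adjusted p under 0.05. The values run from 1.13 to -0.61, with 63 above 0 and the 7 red points all between 0.78 and 1.13.

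The mock spray against untreated was tested on the Columbia mock array, which has no repeat and the raised low end. Of the 90, 1 rose, AT5G25490, beside 0.438% of probe sets, and 0 fell, beside 0.315% (limma, adjusted p under 0.05). At an unadjusted p under 0.05 the numbers were 23 and 5 of the 90, beside 1256 and 954 of 13021 probe sets (limma). The rule chose transcripts that read low on the untreated Columbia array and did not use the mock array, which favours mock above untreated. These counts and the call of AT5G25490 are therefore not independent of the rule. AT5G25490, a RanBP2-type zinc finger gene, read 233.3 with mock and 91.0 untreated in Columbia, a difference of 1.32 ± 0.17 on the log2 scale (limma, adjusted p = 0.0413), with 121.6 in Columbia with IAA. It read 410.8 and 314.6 in arf6 arf8 and 314.1 and 266.0 in arf6/arf6 ARF8/arf8 with IAA and untreated, so the mock level came near the mutant levels. Without either arf6 arf8 array 0 of the 90 passed this test, and without the untreated Columbia array AT5G25490 was not among those that did.

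By ratio alone, mock exceeded untreated Columbia by 1.5-fold or more in 15 of the 90, beside 6.92% of probe sets, and fell short of it by that factor in 5, beside 4.32%. The untreated Columbia array was used by the rule here too, so the surplus of higher mock values is partly set by it. The higher ones include LEA, AT5G44440, AT1G33055, AT3G45680, UGT85A5, CCS, AT4G29890, AT2G38870, AT1G68585 and AT5G25490. For AT2G38870, a serine protease inhibitor gene of the potato inhibitor family, the arrays read 383.6 with IAA and 288.8 untreated in arf6 arf8, 304.0 and 230.0 in arf6/arf6 ARF8/arf8, and 155.3, 243.9 and 129.5 in Columbia with IAA, mock and untreated (mock log2 0.96 ± 0.17, limma adjusted p = 0.065). The mock level of AT2G38870 was therefore above the untreated arf6/arf6 ARF8/arf8 array. Among the lower ones GSTU20 was the 1 with a listed gene, at -0.68 ± 0.17 (limma, adjusted p = 0.123).

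The named transcripts lay on all 5 chromosomes, with 20 of 53 on chromosome 1 (37.7%, beside 26.5% of the named probe sets tested) and 7 on chromosome 3 (13.2%, beside 20.4%). Of these, 3 pairs lay within 20 protein-coding genes of each other, LEA with AT2G21560, AT2G38820 with AT2G38870 and AT4G35690 with AT4G35750. How many such pairs other sets of 53 genes would give was not counted, so nothing is read from the 3.

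Closest inside the rule's limits were AT2G15960, AT1G15740, COR15A, ATA27 and 252282_at, which exceeded their closest limit by under 1%. AT2G15960 met the ratio of 1.5 with 1.503 in the untreated arf6/arf6 ARF8/arf8 pair, and COR15A met it with 1.512 in the IAA pair. Closest outside were AT1G49500, 251428_at, 259909_at, AT5G56100 and 246978_at. AT1G49500 read 1090.9 with IAA and 945.2 untreated in arf6 arf8, 595.6 and 353.7 in arf6/arf6 ARF8/arf8, and 373.2, 438.1 and 235.9 in Columbia with IAA, mock and untreated, with an untreated arf6/arf6 ARF8/arf8 ratio of 1.499. Over all probe sets arf6/arf6 ARF8/arf8 had 1.14% called higher and 1.62% called lower (limma), and of the listed genes that could be tested SWEET9, TPS11 (AT5G44630) and TPS24 were the 3 called lower.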

How the data were processed

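RNA was labelled with biotin and hybridised to 1 array per group. The authors deposited linear intensity values, and MAS5 is named per the submitters' processing notes; neither detection calls nor scaling factors were used. The authors' scaling was kept, since each array's deposited intensity had a 2% trimmed mean of 500. Of 22746 probe sets, 13513 had 1 gene in the platform annotation, with symbols updated through RefSeq TAIR10.1 (names and gene order only).

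Intensities were floored at 65 and taken to log2. Probe sets whose highest array exceeded the 50th percentile (248.1) were kept, 13021 in all; every one of the 90 passes because the rule asks for 250. Genotype and treatment were fitted as additive terms with limma 3.58.1 in R 4.3.3 (lmFit, eBayes, 2 residual degrees of freedom, prior 4.945), with Benjamini-Hochberg adjustment over all probe sets, and the fit was tested on simulated data. Nothing in the labels says that groups come from separate plants or batches, so p-values measure only the spread between these arrays. That spread is the departure of the untreated and IAA arrays from additive effects. The single mock array adds nothing to it, so p-values for mock assume that it varies like the others. The 90, the 14 gene lists with 186 entries (31 testable, none for low sugar or for KNOX and boundary genes) and the tests were chosen with earlier results of these data known. Named are the 25 genes with the largest arf6 arf8 ratio, list members, genes past a test and those at the rule's limits; the functional groups, and a few further genes named in them, were set after the values were seen. Alternatives are described in the closing section.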

Additional observations from a re-analysis of the deposited data

How the results depend on the processing

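The rule gave 85, 90, 81 and 76 transcripts with a floor of 130, a floor of 32, a common median of bright probe sets and quantile normalization; it gave 210 on the untreated pair alone, 219 on the IAA pair alone and 11 with ratios of 3 and 2. The 7 transcripts called with IAA were 0 with no filter (29 at an unadjusted p under 0.05), 0 with untreated and mock as one control (22), 0 for IAA against mock (20), 12 when dim probe sets were dropped up to the 70th percentile and 15, of which 1 was lower, with an intensity trend (limma). Leaving out 1 array gave 0 to 10, with 0 without either arf6 arf8 array (31 at an unadjusted p under 0.05 each), 3 without either arf6/arf6 ARF8/arf8 array and 10 without untreated or IAA Columbia. Over all probe sets 141 were called with IAA, against 0, 2, 23, 236 and 380 with no filter, one control, against mock, the stricter filter and the trend, and 0 to 335 with 1 array left out. With mock the 1 call was 0 with a floor of 130, the stricter filter or the trend (23, 24 and 27 at an unadjusted p under 0.05), 3 with no filter, of which 2 were lower, and 0 to 2 with 1 array left out, 0 without either arf6 arf8 array (29 at an unadjusted p under 0.05 each); over all probe sets 98 became 0, 4, 30 and 914 in these settings and 0 to 240 with 1 array left out. For the unadjusted counts in these alternatives the share over all probe sets was not taken, so nothing is read from them. The count of 1.5-fold rises was added after the data were seen. The fitted differences of the 7 and of AT5G25490 kept their sign in all 16 and 12 alternatives. With 1 array a group, neither a genotype nor a treatment difference has an error from repeats, and the test of a different IAA response in arf6 arf8 called 0 of 13021 probe sets (limma, 1 residual degree of freedom, smallest adjusted p = 0.405, 1461 at an unadjusted p under 0.05). No array file with probe-level signal was analysed here, so depth of signal over background is known only from the floor.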
